A study of Mus musculus with 5 samples.

Results

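The miR-130 and miR-148/miR-152 families were followed in mouse kidney after ischemia reperfusion injury (IRI). The members were chosen by name, as miR-130a-3p, miR-130b-3p, and miR-301a-3p for the miR-130/miR-301 family and miR-148a-3p, miR-148b-3p, and miR-152-3p for the miR-148/miR-152 family. All 6 were on the Agilent 1-colour array used, among 1247 mouse miRNAs measured. Their own probes detected miR-130a-3p, miR-301a-3p, and miR-152-3p on every array, miR-148a-3p on 2 of 5 arrays, and miR-130b-3p and miR-148b-3p on none.

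Male C57B/6 mice underwent 30 min of warm ischemia of both kidneys, and kidney RNA was taken at 6, 12, 24, or 48 h of reperfusion. Sham mice had the operation with no clamp on the renal vessels. The labels give 8 mice per time point, but there was 1 array per group, and the sources used here do not state whether RNA was pooled or came from a single mouse. No spread between mice was measured, so no test between groups could be made, and each error below is the error that the scanner software gives for the spots of 1 array.

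A miRNA silences messenger RNAs that pair with its seed, the bases near its 5′ end, so miRNAs of one family with one seed share many predicted targets. Members of the miR-130/miR-301 family are known to repress Pparg, the nuclear receptor of fat cell formation, miR-130a is known from endothelial cells, where it represses the homeobox genes Meox2 and Hoxa5, and miR-301a is known for repressing Nkrf, itself a repressor of NF-κB. The miR-148/miR-152 family is known to repress the maintenance DNA methyltransferase Dnmt1, and in the kidney field miR-148b is known from IgA nephropathy, where it represses the glycosyltransferase C1GALT1 in leukocytes. These roles are background and were not measured here.

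The mature sequences of RefSeq are shown because the families are defined by their seeds and because the closeness of the members bears on what a probe can tell apart. Bases 2 to 8, the seed, are in capitals, and miR-721 is added as a miRNA outside the named members that carries the miR-130/miR-301 seed.
mmu-miR-130a-3p: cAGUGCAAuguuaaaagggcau
mmu-miR-130b-3p: cAGUGCAAugaugaaagggcau
mmu-miR-301a-3p: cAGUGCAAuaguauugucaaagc
mmu-miR-721: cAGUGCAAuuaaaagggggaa
mmu-miR-148a-3p: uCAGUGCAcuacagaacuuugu
mmu-miR-148b-3p: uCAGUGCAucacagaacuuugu
mmu-miR-152-3p: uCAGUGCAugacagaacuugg

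The seed AGUGCAA of the first 4 was shared by 7 of the 1679 mature miRNA names in the RefSeq table, and the seed CAGUGCA of the last 3 by 3 names. Counted from 1 at the 5′ end, miR-130a-3p and miR-130b-3p differed at 2 of 22 positions (U11A and A13G), and miR-148a-3p and miR-148b-3p at 2 of 22 (C9U and U10C). miR-152-3p differed from miR-148a-3p at 3 of 21 shared positions (C9U, U10G, and U20G) and from miR-148b-3p at 2 of 21 (C10G and U20G). miR-301a-3p shared the seed with miR-130a-3p but differed at 10 of 22 positions, all of them after the seed. The array probes pair with the 3′ end of the miRNA, and the probes of miR-130a-3p and miR-130b-3p differed at 2 of the 18 positions compared, as did those of miR-148a-3p and miR-148b-3p over 19 positions. Some cross-hybridization within each pair was therefore possible and was not tested. The same holds for miR-148b-3p and miR-152-3p, whose probes were not compared by position.

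In the mouse genome (GRCm38.p6), the mature miRNAs lie on 5 chromosomes. Mir130a was the only member gene with no host gene in the annotation (chr2:84741116-84741137, minus strand). miR-130b-3p (chr16:17124071-17124092, minus strand) lies in 2610318N02Rik, and the hairpin of Mir301b begins after a gap of 257 bases from that of Mir130b. miR-301a-3p (chr11:87113054-87113076, plus strand) lies in Ska2, miR-148a-3p (chr6:51269829-51269850, minus strand) in the gene model Gm38821, and miR-148b-3p (chr15:103285185-103285206, plus strand) in Copz1. miR-152-3p (chr11:96850439-96850459, plus strand) lies in Copz2, a gene that, like the Copz1 gene hosting miR-148b-3p, encodes a subunit of the coatomer coat of transport vesicles.

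Several properties of the 5 arrays bear on every value. Signals are background-subtracted intensities, which the software gives as 1 total per probe and which were summed here over the detected probes of a miRNA. A probe was called detected when its signal exceeded 3 times its scanner error, and 182 miRNAs were detected on all arrays, with 197 to 298 detected per array. The software multiplied probe signals by an effective feature size of 0.774 at 12 h and 0.776 at 24 h but 0.6 elsewhere, which adds 0.37 to the log2 ratio of either array over sham. Slide 1 and its scan held sham and 6 h, the other arrays shared slide 2, and the 48 h array was scanned apart, and the effect of the slide therefore cannot be told apart from that of 12, 24, or 48 h of reperfusion. The total signals of the 4 spike-in controls, control RNAs, were 2.08, 2.13, and 2.06 times those of sham at 12, 24, and 48 h. At 12 and 24 h these ratios contain the larger feature size, itself a factor of 1.29, and at 48 h they do not. The slide 2 arrays were therefore not evenly brighter in spot intensity. The median log2 ratio of the 182 miRNAs over sham was 0.16, 0.55, 1.03, and −0.23 at 6, 12, 24, and 48 h. All 7 kidney tubule miRNAs looked for were detected on every array, and the liver miRNA miR-122-5p and 3 muscle miRNAs on none.

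Signal of miR-130a-3p was highest on the 24 h array and lowest on the 48 h array. It was 238 ± 17.7 (scanner error), 240 ± 18.0, 278 ± 20.9, 429 ± 32.1, and 167 ± 12.7 on the arrays in time order, with sham first. The sham, 6 h, and 12 h values lay close together, and the log2 ratio over sham was 0.01 ± 0.15 at 6 h and 0.22 ± 0.15 at 12 h, the latter 1.45 errors from 0. At 24 h the signal was 1.80 times that of sham (log2 ratio 0.85 ± 0.15), and at 48 h it was 0.702 times (log2 ratio −0.51 ± 0.15). Both of its probes gave the same course, with log2 ratios of 0.84 and 0.85 at 24 h. The shorter probe lies within the longer one, so the 2 courses are not independent. Before the feature size was applied, the spots of its brighter probe averaged 553 ± 12.9 (SD over spots), 562 ± 30.8, 502 ± 25.2, 773 ± 26.0, and 396 ± 21.4 in the same order. The 12 h array was thus above sham in probe signal and below it in spot intensity. In RNA of kidney tissue, fewer cells that carry a miRNA and less of it per cell cannot be told apart.

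miR-301a-3p, the longest of the members at 23 bases, was far closer to its detection limit. Only 1 of its 2 probes was detected, with signals of 10.0 ± 1.57, 10.1 ± 1.79, 10.8 ± 2.29, 15.2 ± 3.16, and 6.14 ± 1.74 from sham to 48 h. The order of the arrays was that of miR-130a-3p, but the log2 ratios over sham of 0.02, 0.11, 0.60, and −0.70 had errors of 0.34 to 0.47, and none of them reached 2 errors. At 48 h, 0 of the 20 spots of this probe were well above background by the scanner's own flag, against 20 of 20 on the sham array, so the 48 h level is only a bound. In spot intensity, the dimmest probe that was well above background on that array averaged 28.3. Taken as the bound, it puts sham 1.25-fold and 24 h 1.47-fold above 48 h, with no error counted. These folds are therefore not firm lower limits.

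Among the miR-148/miR-152 members, miR-152-3p alone was detected throughout. Its signal was 53.8 ± 4.36, 57.4 ± 4.78, 59.0 ± 5.26, 94.4 ± 8.04, and 32.9 ± 3.38 from sham to 48 h. Unscaled, the first 3 arrays did not differ beyond the scanner error, with log2 ratios over sham of 0.09 and 0.13 at 6 and 12 h. With a common feature size the 12 h ratio was −0.23, beyond its error of 0.17. Unscaled log2 ratios of 0.81 ± 0.17 at 24 h and −0.71 ± 0.19 at 48 h lay above and below sham by more than 3 errors. These errors add those of its 2 probes as if independent, although the probes overlap. Taken singly, the probes gave 0.80 ± 0.26 and 0.82 ± 0.22 at 24 h, and −0.78 ± 0.32 and −0.68 ± 0.24 at 48 h. At 48 h neither probe thus reached 3 errors. With a common feature size the 24 h ratio was 2.59 errors from 0.

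miR-148a-3p was detected on the sham array (4.53 ± 1.29) and at 6 h (5.23 ± 1.56), by 1 of its 2 probes, with a log2 ratio of 0.21 ± 0.60 between them. On these arrays only 2 and 3 of the 20 spots of that probe were well above background. The same probe read 0.445 ± 2.02 at 12 h, 6.31 ± 2.84 at 24 h, and 1.18 ± 1.64 at 48 h. Its 24 h signal was therefore above that of the arrays on which it was detected, but the limit for detection had moved from 3.87 on the sham array to 6.06 at 12 h, 8.51 at 24 h, and 4.92 at 48 h, above the sham signal on each of the last 3. A detection on the sham and 6 h arrays that was absent later is thus not a measured loss, and no fold is given. In spot intensity this probe averaged 16.03 ± 3.52 (SD over spots), 18.5 ± 5.13, 1.22 ± 3.29, 17.3 ± 5.54, and 4.19 ± 5.53 in the order sham, 6, 12, 24, and 48 h. By this measure the 12 h and 48 h readings were low and the 24 h reading lay between sham and 6 h. The probe was undetected on those 12, 24, and 48 h arrays, and the SD over spots is not the scanner error. These readings are therefore not measured levels.

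miR-148b-3p stayed under its detection limit on all arrays. Its brighter probe read 3.52 ± 1.26, 3.49 ± 1.51, 4.57 ± 2.07, 5.34 ± 2.82, and 2.47 ± 1.65 from sham to 48 h. These are 2.80 times the error on the sham array and 1.49 times at 48 h. The limits for detection there were 3.77 and 4.96, which are thresholds and not upper bounds on the true level. For miR-130b-3p the brighter probe read 2.88 ± 1.24 on the sham array and 3.18 ± 1.50 at 6 h, and was below 0 on the other arrays. Levels under these limits were not detectable at this signal over background.

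**Figure D1:**
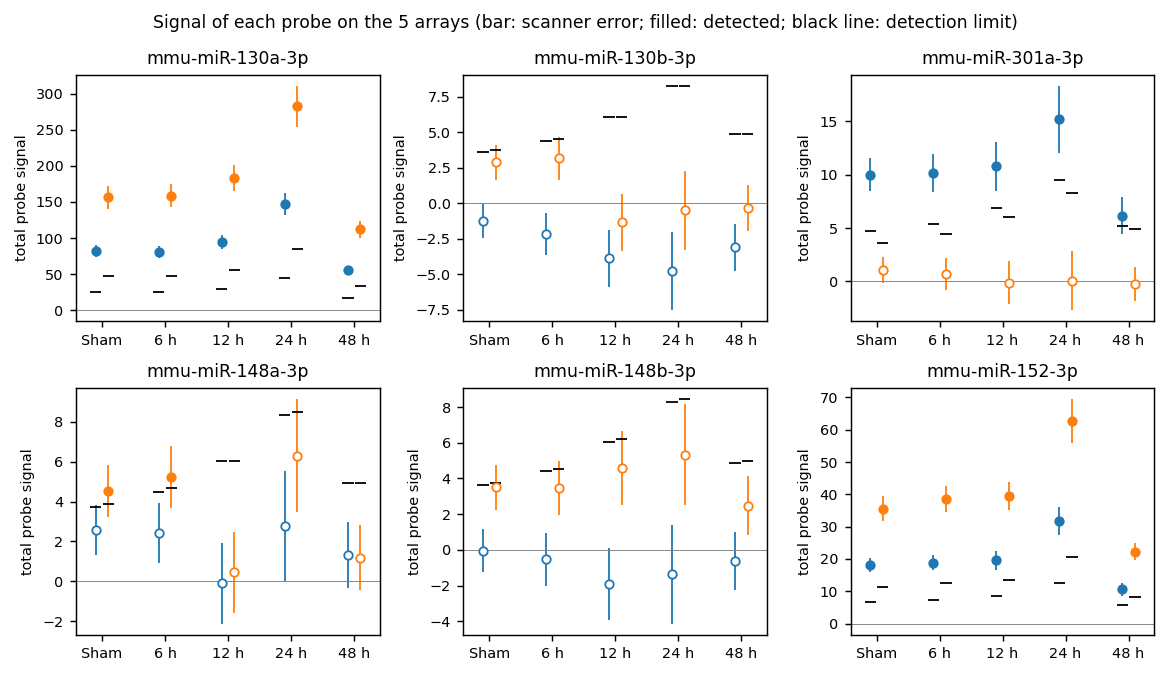
Total probe signal (y axis, arbitrary intensity units, a scale of its own in each panel) of the 2 probes of each member (blue and orange) on the sham, 6, 12, 24, and 48 h arrays (x axis), with bars for the scanner error, filled points for detected probes, open points for undetected ones, and a black line at 3 errors. Both probes of miR-130a-3p and miR-152-3p lie above their limits on all arrays and are highest at 24 h, while those of miR-130b-3p and miR-148b-3p lie below on all arrays.

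Whether the detected members stood above or below sham depended at 12 and 24 h on how arrays were set against each other. With a common feature size, miR-130a-3p had log2 ratios of −0.15 and 0.48 over sham at 12 and 24 h, miR-152-3p of −0.23 and 0.44, and miR-301a-3p of −0.26 and 0.23. The sign at 12 h thus turned for miR-130a-3p, while the 12 h values of miR-152-3p and miR-301a-3p without this step had been within the scanner error of 0, and the 24 h values of all 3 stayed positive and were smaller. Scaled to the spike-ins, the ratio of miR-130a-3p was −0.06, −0.83, −0.24, and −1.55 at 6, 12, 24, and 48 h, below sham at every time. Only the 48 h array was below sham for all 3 members by every one of these measures.

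**Figure D2:**
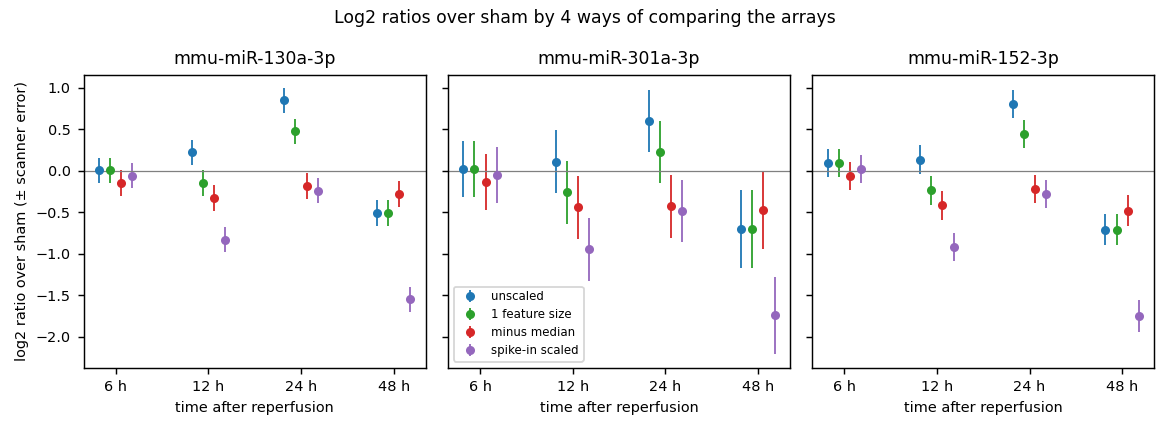
Log2 ratio over sham (y axis) at 6, 12, 24, and 48 h of reperfusion (x axis) of the 3 members detected on all arrays, unscaled, with 1 effective feature size, less the median of the 182 miRNAs, and scaled to the spike-ins, with bars for the scanner error. For miR-130a-3p at 24 h the 4 values were 0.85, 0.48, −0.18, and −0.24, and at 48 h all 4 were below 0.

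The unscaled log2 ratios over sham of the 3 members were below those of most other miRNAs at each time. None of the 3 detected members was at least 2-fold above sham at 6, 12, or 24 h, where 19.2%, 30.8%, and 51.1% of the 182 miRNAs were, nor at 24 h with 1 feature size, where 31.3% were. At 48 h, 3 of 3 were lower than sham, as were 61% of all, and 0 of 3 were at least 2-fold lower, as were 8.24% of all. With 3 members, these counts cannot be set apart from the background, and no test was made.

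Relative to the median of the 182 miRNAs, in which any factor common to an array cancels, the 3 detected members were on the low side at every time. miR-130a-3p differed from the median by −0.15, −0.33, −0.18, and −0.28 on the log2 scale at 6, 12, 24, and 48 h. miR-152-3p gave −0.06, −0.41, −0.22, and −0.48. The corresponding differences for miR-301a-3p, the last of which rests on a probe not well above background, were −0.14, −0.44, −0.43, and −0.48. Being below the median at all 4 times held for 3 of 3 members and for 25.3% of all 182 miRNAs. Of the 12 differences, 3 exceeded 2 scanner errors, with the errors of overlapping probes added as if independent. No member was 2-fold from the median at any time, against 34.6% of all, and the middle 50% of the miRNAs at 24 h spanned −0.32 to 0.56. At 24 h, 66 of the other miRNAs had a lower ratio than miR-130a-3p, 62 a lower one than miR-152-3p, and 29 a lower one than miR-301a-3p.

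**Figure D3:**
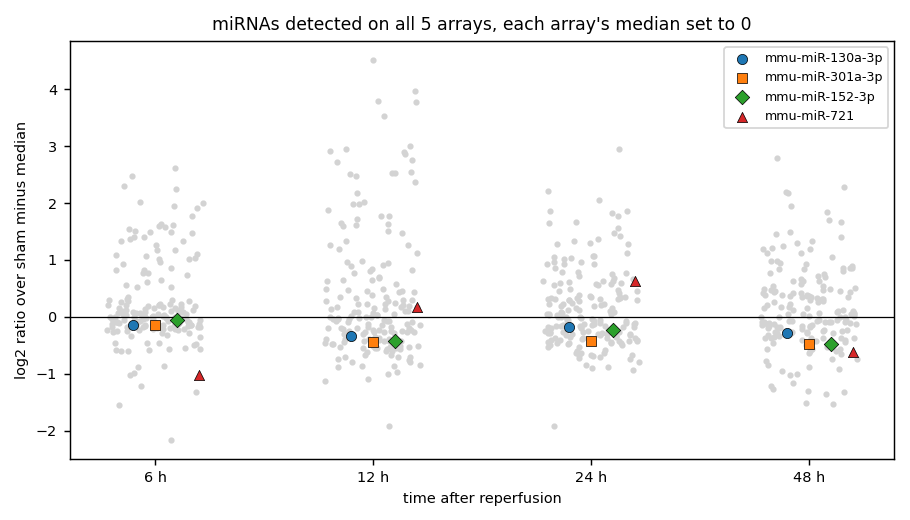
Log2 ratio over sham less the median (y axis) of the 182 miRNAs detected on all arrays, by hours of reperfusion (x axis), with other miRNAs in grey (spread sideways at random) and the 3 detected members and miR-721 marked. The members lie between −0.48 and −0.06 at all times, whereas miR-721 goes from −1.02 at 6 h to 0.63 at 24 h and −0.62 at 48 h.

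Within slide 2, where sham plays no part, the members were higher at 24 h than at 12 h and lower at 48 h than at 24 h. The 48 h array was scanned apart from the other arrays of this slide, so the step from 24 to 48 h cannot be told apart from an effect of the scan. From 12 to 24 h the log2 ratio was 0.63 ± 0.15 for miR-130a-3p, 0.68 ± 0.18 for miR-152-3p, and 0.49 ± 0.43 for miR-301a-3p, with a median of 0.46 over all miRNAs. From 24 to 48 h it was −1.36 ± 0.15, −1.52 ± 0.19, and −1.31 ± 0.51, with a median of −1.24. By own-probe signal 3 of 3 members were thus at least 2-fold lower at 48 h than at 24 h, as were 65.4% of all miRNAs. For miR-301a-3p, however, the 48 h level is only a bound. The 1.47-fold from that bound was in spot intensity, without the feature size and without errors, so it is not on the scale of this count. With 1 feature size 1 of 3, miR-152-3p (−1.15), passed 2-fold, as did 42.3% of all, and miR-130a-3p lay just inside it (−0.99).

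The 3 members detected on all arrays were also compared with each other within each array. Set against miR-130a-3p on the same array, the signal of miR-152-3p changed from sham by 0.09, −0.09, −0.04, and −0.20 on the log2 scale at 6, 12, 24, and 48 h, with errors of 0.23 to 0.24. The corresponding changes for miR-301a-3p were 0.01, −0.11, −0.25, and −0.19, with errors of 0.37 to 0.49, and the last of them rests on a probe not well above background. None of these 8 changes exceeded its error, which leaves room for differences of that size, and miR-148a-3p, miR-148b-3p, and miR-130b-3p could not be compared in this way on all arrays.

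miR-721, with the miR-130/miR-301 seed but differing from miR-130a-3p at 6 of 21 positions (from G10U to C20A), changed by more than its error relative to miR-130a-3p at every time. It lies in an unrelated host gene, Cux1 (chr5:136375777-136375797, minus strand). Its signal was 166, 91.6, 274, 528, and 92.2 from sham to 48 h. Its log2 ratios over sham were −0.86, 0.72, 1.67, and −0.85, with errors of 0.10 to 0.11, and its 4 probes gave 1.62 to 1.70 at 24 h. These probes overlap, so their values are not independent. They pair with 12 to 15 bases, against 16 to 21 for the probes of the members, and cross-hybridization to them was not tested. Relative to miR-130a-3p of the same array miR-721 was lower by 0.87 ± 0.19 at 6 h and higher by 0.50 ± 0.18 at 12 h and 0.82 ± 0.18 at 24 h. It was looked for because of its seed, and of the 5 miRNAs added by seed or name it was the only 1 detected. miR-6341, miR-6389, and miR-130c, which have the same seed, and miR-301b-3p, added by name, were detected on no array.

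**Figure D4:**
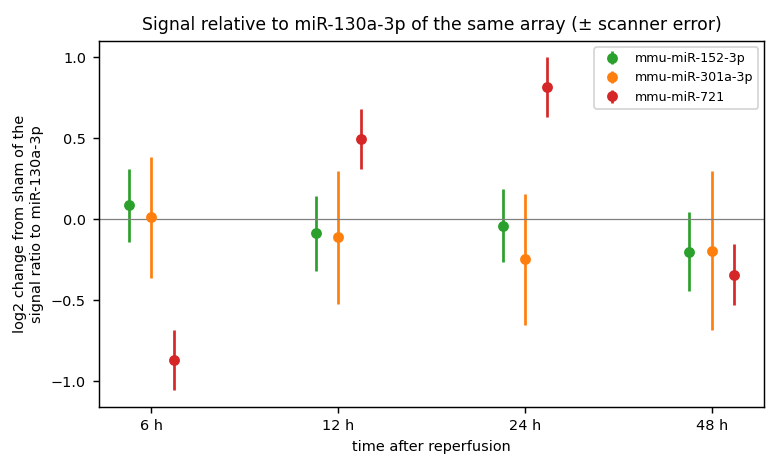
Change from sham (y axis, log2) in the signal relative to miR-130a-3p of the same array, at 6, 12, 24, and 48 h of reperfusion (x axis), for miR-152-3p, miR-301a-3p, and miR-721, with bars for the scanner error. The points of miR-152-3p and miR-301a-3p lie within 1 error of 0 at all times, and those of miR-721 run from −0.87 at 6 h to 0.82 at 24 h.

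Of the 7 opposite (5p) arms of the members and of miR-301b, miR-130b-5p was the only one detected, on the 24 h array and by 1 of its 4 probes (6.42 ± 1.52). The limit for that probe was 4.57.

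The miRNAs with the most similar course were found by the root mean square difference of the 4 median-centred log2 ratios, over 179 candidates. For the miR-130/miR-301 family these were miR-98-5p (0.066), miR-16-5p (0.074), and the endothelial miRNA miR-126-3p (0.085). For miR-152-3p they were miR-98-5p (0.094), miR-26b-5p (0.098), and miR-30a-3p (0.098). All of these differences were smaller than the scanner error of a member's log2 ratio, at least 0.15, so the ranking is not resolved. miR-126-3p had signals of 827, 881, 898, 1284, and 586 on the 5 arrays in order, again with the highest at 24 h and the lowest at 48 h.

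Marker miRNAs of other cells moved in part with the members. Of the 2 endothelial miRNAs, 1 was detected on all arrays, and the summed endothelial signal relative to the median was −0.07, −0.44, −0.40, and −0.27 at 6, 12, 24, and 48 h. For the 7 tubule miRNAs the summed signal gave 0.06, −0.14, −0.34, and −0.19. Most of that sum was miR-30a-5p and miR-192-5p (1279 and 738 on the sham array). miR-204-5p was above the median at 12, 24, and 48 h (0.57, 1.65, and 0.42), while every other tubule miRNA was below it at 24 and 48 h. Leukocyte miRNAs, of which 3 to 4 of 6 were detected, gave 0.52, 0.66, −0.47, and 0.58. This sum held the miRNAs detected on each array, and these were not the same on all arrays. Of those detected on all arrays, miR-223-3p alone gave 1.01, 1.19, −0.36, and 0.98, and miR-155-5p 0.15, −0.30, 0.07, and 0.95. The red blood cell miRNA miR-451a gave 1.49, 0.0035, 0.72, and −0.37, while miR-144-3p, another miRNA of these cells, was not detected. The part of cell composition in the members' values was not tested.

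Other families gave medians on the same side at some times. The miR-26/miR-101 family (3 of 4 members detected on all arrays) had median differences from all miRNAs of −0.06, 0.01, −0.18, and −0.40 at 6, 12, 24, and 48 h. The miR-15/miR-16 and miR-103/miR-107 family (7 of 7) had −0.14, −0.47, −0.43, and −0.10. A position below the median was therefore also seen in other families at most times, and no difference between families could be tested with 1 array per group.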

How the data were processed

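Kidney RNA was measured on 5 Agilent 1-colour mouse miRNA arrays, 1 per group, grouped by the labels. The intensity values the authors deposited are scanner output of Agilent Feature Extraction 10.7.1.1, in which background and spatial trends were removed array by array, with no step between arrays. A second deposited table holds processed log2 values, whose normalization, scale, and centring are not given in the sources used here (column medians −3.32 to −3.01). It served as an alternative only.

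For each miRNA, total probe signals above 3 times their error were summed once per probe, and errors were added in quadrature and carried to the log2 scale. This treats the probes of a miRNA as independent, although those of each member overlap. No scaling between arrays was the main setting. The study's methods also took abundance from the raw signal, but normalized it to a blank value of 0.1. Here undetected probes were left out. Folds of members and families were formed only between arrays with a detection, while the marker sums held whatever was detected on each array. Precision is limited by the number of arrays, and no p-value was computed. Alternatives were other scalings, detection rules, background corrections, and summaries.

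The members, the marker lists, and the comparison families were chosen with earlier results of these data known. All members, their other arms, miRNAs with the same seed, and the 3 miRNAs closest to each family in course were named. Sequences, positions, and host genes are from RefSeq tables (GRCm38.p6). miR-301b-3p had no sequence there and was matched by name. Normexp and quantile steps were run in limma 3.58.1 under R 4.3.3, and everything else in pandas 2.3.3 and numpy 2.4.6 under Python 3.11.15, with plots by matplotlib 3.10.9. The computation was tested on simulated data.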

Additional observations from a re-analysis of the deposited data

How the results depend on the processing

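Signal over background limited miR-148a-3p, miR-148b-3p, miR-130b-3p, and miR-301a-3p. No paired analysis was possible because no group held a second array. Summed over the members detected on both arrays compared, the miR-130/miR-301 signal gave log2 ratios over sham of 0.01, 0.22, 0.84, and −0.52 in time order, and the miR-148/miR-152 signal 0.10, 0.13, 0.81, and −0.71, of which all but the first are miR-152-3p alone. Except for the feature size, which by construction takes 0.37 off at 12 and 24 h, the cause of a change was not tested.

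For the miR-130/miR-301 sum, 1 feature size gave −0.15 at 12 h and 0.47 at 24 h, and mean spot signals −0.13 and 0.49. Scaling by the median gave −0.15, −0.33, −0.19, and −0.29 in time order. Scaling by the 75th percentile gave −0.29, −0.41, and −0.32 at 6, 12, and 24 h, and quantile normalization −0.33, −0.55, and −0.40. The spike-ins gave −0.84, −0.25, and −1.56 at 12, 24, and 48 h, and normexp −0.10, 0.42, and −0.33.

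For the miR-148/miR-152 sum, 1 feature size gave −0.23 at 12 h and 0.44 at 24 h, and mean spot signals −0.25 and 0.43. Scaling by the median gave −0.41, −0.22, and −0.48 at 12, 24, and 48 h, the spike-ins −0.92, −0.28, and −1.75, and normexp −0.12, 0.30, and −0.27. The 75th percentile gave −0.19, −0.50, and −0.35 at 6, 12, and 24 h, and quantile normalization −0.54, −0.998, and −0.45. With no detection filter the 12 h value was −0.053, and with detection above 6 errors the 48 h value was −1.27, which sets 1 probe of miR-152-3p at 48 h against 2 on the sham array, whereas the retained probe alone gave −0.68.

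Relative to the median, the miR-130/miR-301 median was −0.38, −0.31, and −0.38 at 12, 24, and 48 h. The processed table gave −1.52 at 12 h and −1.70 at 24 h, and the spike-ins in place of the median −0.89 at 12 h and −1.65 at 48 h. For miR-148/miR-152 the processed table gave −0.23 at 6 h, the spike-ins −0.92 and −1.75 at 12 and 48 h, and normexp −0.23 and −0.21. These stayed below 0, but with the spike-ins the 6 h value of miR-148/miR-152 was 0.025, against −0.06. The 3 scalings by 1 factor per array (median, 75th percentile, feature size) cancel in these values and say nothing about their stability.

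Among single members, the 12 h ratio of miR-130a-3p turned to −0.15 with 1 feature size, −0.33 by the median, −0.83 by the spike-ins, and −0.53 in the processed table. At 24 h the same 3 alternatives after the first gave −0.18, −0.24, and −0.36 for miR-130a-3p, −0.43, −0.49, and −3.50 for miR-301a-3p, and −0.22, −0.28, and −0.44 for miR-152-3p.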

Other observations

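The software's total gene signal, from which the main values were not taken, held the signal of a second miRNA in some entries. For miR-148a-3p it was 14.2 on the sham array and 15.4 at 6 h, where its own probes gave 4.53 and 5.23. The excess equalled the total of miR-146a-5p on the same array to within 0.01% and made up 68.0% and 66.1% of the entry.

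Signal of the members was in turn found in the totals of other miRNAs. For miR-155-5p, a leukocyte miRNA, the total exceeded its own probes by the total of miR-152-3p on all 5 arrays, a share of 69.7% to 86.1% of the entry. For miR-130b-5p at 24 h the total was 436, of which 429 equalled the total of miR-130a-3p. The total of miR-139-5p on the sham array was 246, of which 238 equalled that of miR-130a-3p.

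In the deposited log2 table, miR-301a-3p stood at 4.16, 3.48, 0.49, 0.65, and 3.67 for sham, 6, 12, 24, and 48 h, and its 12 h and 24 h values were more than 3 units below sham. Its own-probe signals on those arrays were 10.8 and 15.2, against 10.0 on the sham array.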
